A study of Mus musculus with 18 samples.

Results

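The ADAM and ADAMTS proteases are the genes whose symbol in the deposited table is Adam, Adamts or Adamtsl followed by a number and, in some cases, the letter a or b. This choice by name used no measured value, but it was made with earlier results of these data known. It found 57 of the 55486 genes in the table, of which 33 are Adam, 19 Adamts and 5 Adamtsl genes. Their RNA was measured by sequencing of polyadenylated RNA in 18 libraries of cultured normal fibroblasts (NFs) from the mammary gland of FVB/n mice, sorted by the surface peptidase CD26. For 7 days the CD26- NFs were kept in control conditioned medium (n = 3, replicates 1 to 3) or in tumour conditioned medium (CM) (n = 6, replicates 4 to 9). The CD26+ NFs were treated alike, with replicates 10 to 12 in control medium (n = 3) and replicates 13 to 18 in CM (n = 6), which makes 4 groups. Tumour CM came from 6 WEPtn lines (13-MCB-17, 10-SJK-221, 18-MCB-12, 13-MCB-44, 13-MCB-90 and 13-MCB-138), in this order for replicates 4 to 9 and again for 13 to 18. WEPtn names a mouse model of invasive lobular carcinoma in which the Wap promoter of mammary epithelium drives Cre, so that the tumour cells lack E-cadherin, and its full genotype is not given here. The fibroblasts themselves came from female mice without WapCre on the FVB/n background, and which of the study's donor strains gave each library is not stated in the sources used here. Glands of several animals were pooled for each sort, fibroblasts were taken as cells without EpCAM, CD49f, CD45 and CD31, and the labels do not say that libraries of a group came from separate animals or cultures. The p-values below therefore measure the spread between these libraries, which may be technical in control medium and includes the difference between lines in tumour CM.

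ADAMs are membrane proteins that carry a metalloproteinase and a disintegrin domain, and many of them cut the outer part off other membrane proteins, such as growth factors, cytokine receptors and adhesion molecules. ADAMTS proteases are secreted, bind the extracellular matrix through thrombospondin repeats and cut matrix proteins, among them proteoglycans such as versican and aggrecan, the amino propeptides of fibrillar procollagens and cartilage oligomeric matrix protein (COMP). ADAMTS-like proteins have the matrix-binding part without the protease, and several ADAMs lack the catalytic motif or are made mainly in testis and epididymis. In connective tissue, fibroblasts are a main source of the matrix-directed members.

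Of the 57 genes, 37 had a mean count above 3 in at least 1 of the 4 groups. Another 7 had some counts but never a group mean above 3, namely Adam18, Adamts13, Adam1b, Adam3, Adamts18, Adam21 and Adam32. The other 13 were at 0 in every library (Adam2, Adam6a, Adam6b, Adam7, Adam20, Adam24, Adam25, Adam26a, Adam26b, Adam29, Adam30, Adam34 and Adam39). A count of 0 allows up to 3 counts, which is between 0.203 and 0.290 CPM (counts scaled to a common library size) across the libraries. The gene just outside the limit was Adam32, with 2.83 counts in its highest group, and the gene just inside was Adamts19 with 3.17. By role, counts were above 3 for 9 of 9 sheddases, 3 of 3 ADAMs without a catalytic motif, 7 of 7 proteoglycanases, 3 of 3 procollagen N-proteinases, 2 of 2 COMP-cleaving proteases, 5 of 7 other ADAMTS and 5 of 5 ADAMTS-like genes. Among ADAMs made mainly in testis and epididymis it was 3 of 21, namely Adam1a, Adam4 and Adam5. Adam1a shares 63.7% of its exon length with Gm42878 on the same strand, so its reads cannot be assigned with certainty. A filter on low counts kept 31 of the 37 for testing and left out Adamts19, Adam28, Adamts17, Adam4, Adamts20 and Adamtsl2, whose highest group means lay between 3.17 and 11.3 counts.

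Total counts per library ran from 9725723 to 14585349 and overlapped between the 4 groups. In an unsupervised clustering of the 100 most variable genes, CD26+ CM replicate 18, which received CM of line 13-MCB-138, fell with the CD26+ controls. Dpp4, the gene of CD26, did not tell the sorted populations apart in control medium, where its level reached at most 0.171 CPM in the CD26- group and 0.0809 CPM in the CD26+ group. In tumour CM the range was 0.0776 to 0.881 CPM for CD26- and 0.715 to 7.80 CPM for CD26+ cultures, so the cell type names below are those of the labels. All 8 fibroblast markers were present, and their summed level was 13543 to 15673 CPM in CD26- control, 9196 to 19210 CPM in CD26- CM, 42347 to 52386 CPM in CD26+ control and 25983 to 42338 CPM in CD26+ CM libraries. All 10 epithelial markers averaged 1 CPM or more in every group, and their sum was 4244 to 4720, 2721 to 4449, 693 to 1260 and 638 to 1534 CPM in the same order. Skeletal muscle markers summed to between 12.1 and 71.9 CPM in CD26- CM and to at most 2.61 CPM elsewhere, while 6 of 8 immune markers, Ptprc among them, stayed under 1 CPM in all groups.

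Per kilobase of exon, a scale that allows for the length of different genes, Adam9 had the highest mean level of the 57 genes in each group, at 78.8 ± 0.789 CPM per kb (SD, n = 3) in CD26- control, 81.2 ± 8.77 (n = 6) in CD26- CM, 93.4 ± 2.76 (n = 3) in CD26+ control and 97.3 ± 4.84 (n = 6) in CD26+ CM. The length counts every annotated exon of a gene, and which forms these cells make was not tested. Adam9 is a widely expressed membrane protease. In CD26- NFs in control medium it was followed by Adam19 at 51.3 ± 1.15 and Adam10 at 49.7 ± 2.98 CPM per kb, which did not differ beyond their spread, and then by Adam12 at 36.4 ± 0.937 and Adamts2 at 23.9 ± 2.00. The order was another in CD26+ NFs in control medium, where Adamts2 stood at 88.5 ± 5.68 CPM per kb, below Adam9 in each of the 3 libraries but on average by less than its own SD, followed by Adam12 at 76.0 ± 4.08, Adam19 at 48.1 ± 3.69 and Adam10 at 40.1 ± 1.08. In CD26+ CM libraries Adam19 reached 79.8 ± 13.1 CPM per kb, which overlapped Adamts2 at 91.2 ± 6.25, and Adamts9 stood at 17.4 ± 3.18 next to Adamts1 at 17.4 ± 2.57. Adamts2 lay below Adam9 there on average by less than its own SD.

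**Figure D1:**
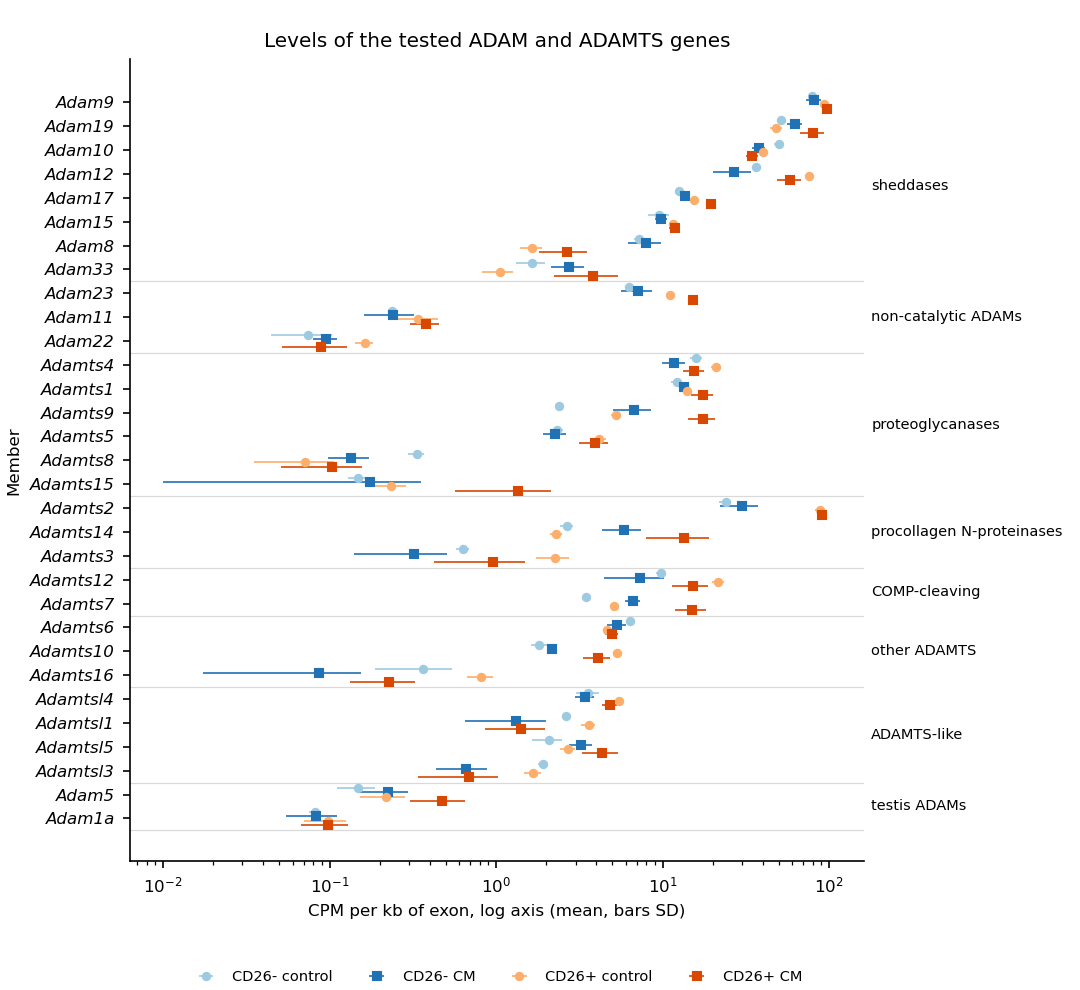
Level per kilobase of exon (CPM per kb, log axis) of the tested ADAM and ADAMTS genes in the 4 groups; points are means over 3 control or 6 CM libraries and bars the SD, cut at 0.01 where the lower end falls below it. Adam9 has the highest mean in each group, from 78.8 to 97.3 CPM per kb, and Adamts2 stands at 23.9 CPM per kb in CD26- control and 88.5 in CD26+ control.

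The first question was how tumour CM changed these genes in each fibroblast type. In CD26- NFs, 9 of 31 tested members passed (29.0%), 4 of them up and 5 down, where 15.2% of all 14273 tested genes passed, 7.88% up and 7.28% down. In CD26+ NFs it was 20 of 31 (64.5%), 12 up and 8 down, where 28.6% of all genes passed, 15.2% up and 13.4% down. Passing means an FDR under 0.05, the Benjamini-Hochberg adjusted p of the quasi-likelihood F test of edgeR over all tested genes. Without replicate 18 the counts were 12 in CD26- and 21 in CD26+ NFs, with 17.9% and 34.9% of all genes. The median log2 change of the members was 0.05 in CD26- and 0.06 in CD26+ NFs, next to 0.01 and -0.00 over all tested genes. With the further limit of a log2 change beyond 2, only Adamts16 remained in CD26- NFs (0.904% of all genes), and Adamts14 and Adamts15 in CD26+ NFs (2.01% of all genes). Beside the CM effect, summed skeletal muscle markers were 1.76 to 2.61 CPM in CD26- control and 12.1 to 71.9 CPM in CD26- CM, and adipocyte markers 14.3 to 16.0 and 16.9 to 27.9 CPM. Every CD26+ CM library had a lower fibroblast marker sum than every CD26+ control, though the nearest values, 42338 and 42347 CPM, were almost equal. Within this list Dcn rose with CM in CD26+ NFs, while Col1a1 and Col1a2 fell. The part of these marker sums in the CM effect was not tested. In CD26- NFs the count fell to 4 without CD26- control replicate 3 and rose to 16 of 31 when both libraries of line 13-MCB-138 were left out, where 20.3% of all genes passed. In CD26+ NFs a fit on the libraries of those 2 groups alone gave 16 calls among 30 members tested, where 24.4% of all genes passed. It added Adam12 and ended the calls of Adam8, Adam22, Adamts1, Adamts10 and Adam5.

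**Figure D2:**
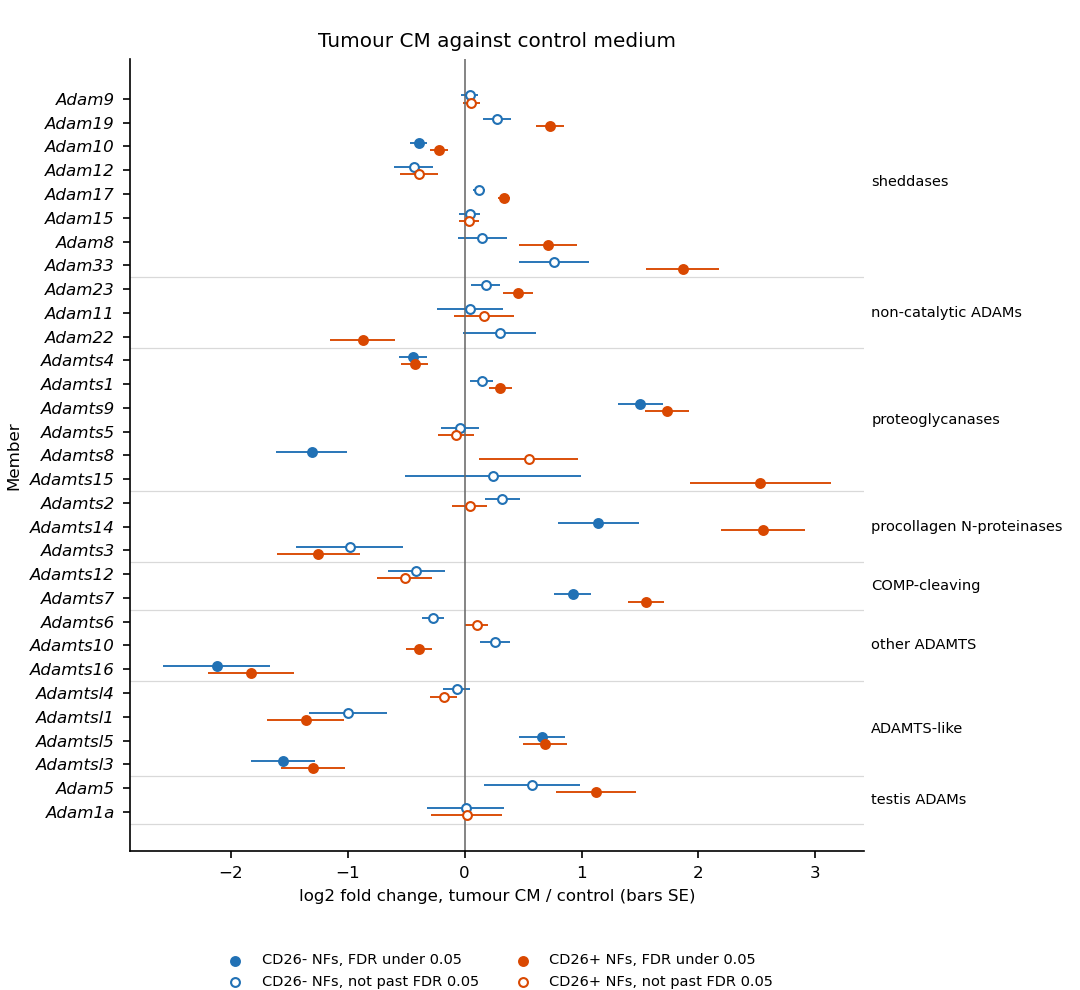
Log2 fold change of tumour CM against control medium for the 31 tested members in CD26- and CD26+ NFs; bars are the SE of the edgeR fit, filled points have an FDR under 0.05 and open points do not. Adamts7, Adamts9, Adamts14 and Adamtsl5 are filled above 0 and Adam10, Adamts4, Adamts16 and Adamtsl3 filled below 0 in both cell types.

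A group of 8 members passed in the same direction in both cell types, 4 up and 4 down, as did 4.13% of all 14273 tested genes upward and 2.41% downward. The risers were Adamts9, Adamts7, Adamts14 and Adamtsl5, and the fallers Adamts16, Adamtsl3, Adamts4 and Adam10. The 2 tests share no library. Adamts9 (chr6:92772699-92943492, minus strand, GRCm38), a proteoglycanase known for cutting versican, had 34.3, 36.6 and 36.6 CPM in CD26- control and 76.6 to 147 CPM (median 92.5) in CD26- CM libraries. In CD26+ NFs it had 72.8, 82.2 and 81.7 CPM in control and 182 to 318 CPM (median 266) in CM. Neither pair of groups overlapped, and the log2 change was 1.50 ± 0.19 (SE; FDR = 0.000194) in CD26- and 1.73 ± 0.19 (FDR = 4.74e-06) in CD26+ NFs. Antisense genes cover 9.18% and 2.82% of its exon bases.

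Adamts7 (chr9:90163069-90208071, plus strand), which cuts COMP, had 22.7, 21.6 and 21.3 CPM in CD26- control and 34.5 to 47.2 CPM (median 41.1) in CM, against 30.1, 32.8 and 33.5 CPM in CD26+ control and 59.0 to 116 CPM (median 97.5) in CM. All CM libraries were above all controls of their cell type. Its log2 change was 0.93 ± 0.16 (FDR = 0.00123) in CD26- and 1.55 ± 0.16 (FDR = 2.3e-06) in CD26+ NFs. Adamts14 (chr10:61197112-61273438, minus strand), a procollagen N-proteinase, had 12.8, 15.1 and 13.5 CPM in CD26- control and 18.0 to 40.5 CPM (median 31.5) in CM. In CD26+ NFs it had 10.8, 12.0 and 12.9 CPM in control and 23.1 to 100 CPM (median 70.5) in CM. Its log2 rise in CD26+ NFs was 2.55 ± 0.36 (FDR = 6.16e-05), and 2.72 (FDR = 1.84e-07) without replicate 18, which held its lowest CM value. In CD26- NFs the log2 rise was 1.14 ± 0.35 (FDR = 0.0343), and leaving out any one of replicates 1 to 6 or 8 took the FDR above 0.05, up to 0.129 without CD26- control replicate 3. Adamtsl5 (chr10:80339110-80348412, minus strand), an ADAMTS-like gene, had 11.7, 9.82 and 7.78 CPM in CD26- control and 12.3 to 19.5 CPM (median 14.7) in CM, and 13.8, 13.2 and 11.3 CPM in CD26+ control and 14.7 to 28.1 CPM (median 19.6) in CM. The groups did not overlap in either cell type, though the gaps were small. Its log2 change was 0.66 ± 0.19 (FDR = 0.0286) in CD26- NFs, lost without replicate 2, 3, 4 or 8 (up to 0.178, without 3), and 0.69 ± 0.19 (FDR = 0.0101) in CD26+ NFs, lost without CD26+ control replicate 12 (0.0619).

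Among the fallers, Adamts16 (chr13:70727802-70841811, minus strand), a close relative of Adamts18, had 2.52, 1.28 and 3.72 CPM in CD26- control and 0.155 to 1.35 CPM (median 0.383) in CM, and 5.02, 6.67 and 4.97 CPM in CD26+ control and 0.834 to 2.68 CPM (median 1.43) in CM. These are low levels, with 2 to 18 counts per library in CD26- CM. The CD26- ranges overlapped and the CD26+ ranges did not. Its log2 change was -2.12 ± 0.46 (FDR = 0.00571; 0.0759 without CD26- control replicate 3) in CD26- and -1.83 ± 0.37 (FDR = 0.00134) in CD26+ NFs. Adamtsl3 (chr7:82335694-82614450, plus strand), an ADAMTS-like gene, had 13.8, 14.9 and 15.9 CPM in CD26- control and 3.29 to 8.22 CPM (median 4.91) in CM, and 11.3, 14.3 and 13.1 CPM in CD26+ control and 3.37 to 10.5 CPM (median 4.34) in CM. The highest CM value in CD26+ NFs was replicate 18, with the next at 5.31 CPM. Its log2 change was -1.55 ± 0.27 (FDR = 0.00154) in CD26- and -1.30 ± 0.28 (FDR = 0.00208) in CD26+ NFs, the latter -1.61 (FDR = 1.03e-05) without replicate 18. Adamts4 (chr1:171250421-171260637, plus strand), an aggrecanase, had 84.2, 71.3 and 75.1 CPM in CD26- control and 46.9 to 72.1 CPM (median 55.0) in CM, and 93.9, 104 and 102 CPM in CD26+ control and 62.4 to 84.4 CPM (median 75.0) in CM. Its log2 change was -0.44 ± 0.12 (FDR = 0.0187) in CD26- and -0.43 ± 0.12 (FDR = 0.0109) in CD26+ NFs, and the first was lost without CD26- control replicate 1 (0.104) or 3. Adam10 (chr9:70678997-70780229, plus strand), the protease that cuts Notch receptors and many adhesion molecules, had 241, 231 and 260 CPM in CD26- control and 171 to 215 CPM (median 180) in CM, and 195, 194 and 203 CPM in CD26+ control and 158 to 191 CPM (median 162) in CM. No CM library reached a control of its cell type. Its log2 change was -0.39 ± 0.07 (FDR = 0.00218) in CD26- and -0.22 ± 0.07 (FDR = 0.0333) in CD26+ NFs, the latter lost without any one of CD26+ replicates 10 to 15 or 17, up to 0.112 without 12.

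Promoters are shown for the 5 of these 8 genes that are in the RefSeq promoter table, to give the sequence next to genes that passed in both cell types. With CM, Adamts9, Adamts14 and Adamtsl5 rose, and Adam10 and Adamtsl3 fell. They hold the bases before the annotated start of each gene in the RefSeq annotation of GRCm38.p6, read 5′ to 3′ on the strand of the gene. The reference is not the FVB/n genome. Capitals mark matches on either strand to 5 motifs, namely the AP-1 site TGANTCA, the GC box GGGCGG, the CCAAT box CCAAT, the TATA box TATAAA and the CRE TGACGTCA. The positions are chr9:70678732-70678981 (plus) for Adam10, chr10:61273439-61273669 (minus) for Adamts14, chr6:92943535-92943784 (minus) for Adamts9, chr7:82335444-82335693 (plus) for Adamtsl3 and chr10:80348449-80348698 (minus) for Adamtsl5. For Adamts14, 19 bases that another annotated form of the gene places in an exon were left out.
Adam10: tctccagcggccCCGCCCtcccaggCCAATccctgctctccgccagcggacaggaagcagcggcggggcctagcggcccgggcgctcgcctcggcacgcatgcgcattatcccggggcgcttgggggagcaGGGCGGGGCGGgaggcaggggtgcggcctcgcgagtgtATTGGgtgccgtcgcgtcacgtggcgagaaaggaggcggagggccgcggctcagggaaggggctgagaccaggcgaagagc
Adamts14: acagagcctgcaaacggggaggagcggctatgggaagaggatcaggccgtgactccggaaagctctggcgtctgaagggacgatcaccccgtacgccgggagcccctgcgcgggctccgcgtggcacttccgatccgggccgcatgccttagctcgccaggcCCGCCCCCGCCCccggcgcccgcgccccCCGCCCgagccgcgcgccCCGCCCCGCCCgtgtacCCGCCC
Adamts9: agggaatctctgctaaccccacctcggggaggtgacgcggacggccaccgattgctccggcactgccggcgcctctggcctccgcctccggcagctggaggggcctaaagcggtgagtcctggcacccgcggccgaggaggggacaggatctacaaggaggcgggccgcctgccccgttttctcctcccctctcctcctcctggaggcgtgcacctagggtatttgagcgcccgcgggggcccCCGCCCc
Adamtsl3: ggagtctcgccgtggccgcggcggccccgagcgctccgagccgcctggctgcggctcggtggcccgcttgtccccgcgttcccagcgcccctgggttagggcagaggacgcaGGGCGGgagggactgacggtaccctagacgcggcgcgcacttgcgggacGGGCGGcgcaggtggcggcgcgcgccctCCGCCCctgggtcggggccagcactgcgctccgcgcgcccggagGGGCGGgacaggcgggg
Adamtsl5: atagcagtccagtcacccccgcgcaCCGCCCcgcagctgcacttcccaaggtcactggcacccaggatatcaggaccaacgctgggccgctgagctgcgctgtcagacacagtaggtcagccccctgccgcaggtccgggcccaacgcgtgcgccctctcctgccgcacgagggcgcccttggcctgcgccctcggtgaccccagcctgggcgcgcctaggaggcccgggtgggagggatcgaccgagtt

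All 5 windows are rich in G and C, with 74.0% in Adam10, 75.8% in Adamts14, 71.2% in Adamts9, 80.0% in Adamtsl3 and 70.8% in Adamtsl5, where the median over 32536 distinct windows of 250 bases is 52.4%. Each holds the GC box, counted with overlaps: 6 in Adamts14, 4 in Adamtsl3, 3 in Adam10 and 1 each in Adamts9 and Adamtsl5. Of all windows, 33.0% hold it. Adam10 also has 2 CCAAT boxes, found in 33.8% of all windows. The AP-1 site (6.73% of windows), the TATA box (12.3%) and the CRE (1.56%) had no match in these 5. Such matches describe letters in a window and are not evidence of binding.

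**Figure D3:**
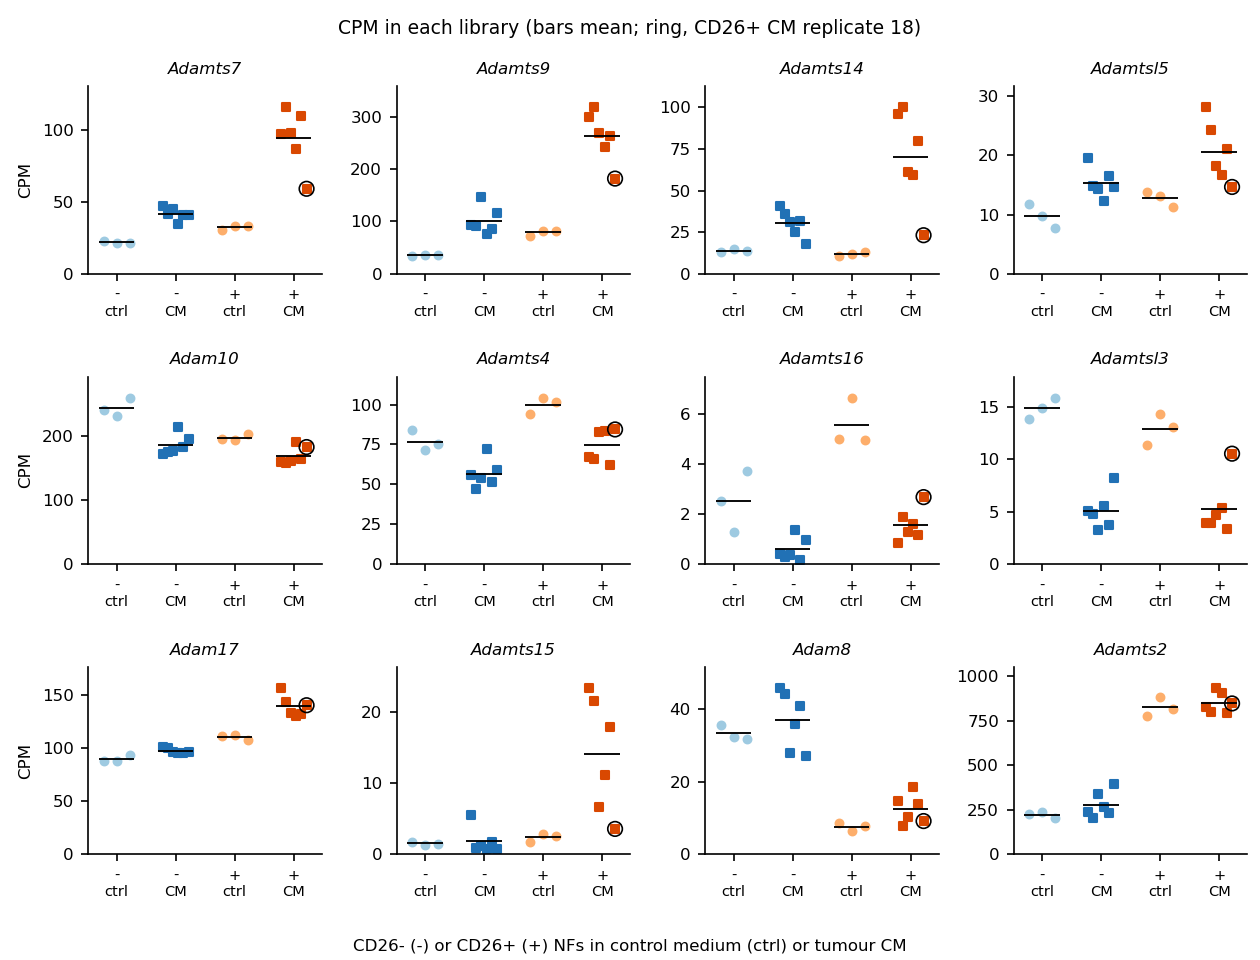
Level in CPM of 12 members in each library of the 4 groups, 1 panel per gene with its own axis from 0; bars are group means and the ringed point is CD26+ CM replicate 18. In Adamts7, Adamts9 and Adamts14 every CM library lies above the controls of its cell type, and in Adamtsl3 the ringed library, at 10.5 CPM, is the one nearest the CD26+ controls.

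Of the sheddases, 8 were tested. With CM, Adam10 alone of them fell in CD26- NFs (12.5%; 7.28% of all genes). In CD26+ NFs 4 went up (50.0%; 15.2% of all genes), namely Adam17, Adam19, Adam33 and Adam8, and Adam10 went down (12.5%; 13.4% of all genes). Adam17 (chr12:21323509-21373632, minus strand), which releases TNF and ligands of the EGF receptor, had 87.6, 87.8 and 93.5 CPM in CD26- control and 95.3 to 102 CPM (median 96.2) in CM. In CD26+ NFs it had 111, 113 and 108 CPM in control and 130 to 157 CPM (median 137) in CM, with no overlap. The log2 rise in CD26+ NFs was small but tight, 0.34 ± 0.05 (FDR = 0.00017), next to 0.12 ± 0.05 (FDR = 0.128) in CD26- NFs. Adam19, a mesenchymal sheddase of neuregulins, rose by 0.73 ± 0.12 (FDR = 0.000297) on the log2 scale in CD26+ NFs, from 314, 347 and 365 CPM to 402 to 681 CPM (median 574). Adam33, known from the genetics of asthma, had 7.04, 5.04 and 4.90 CPM in CD26+ control and 12.0 to 33.0 CPM (median 16.7) in CM, a log2 rise of 1.87 ± 0.31 (FDR = 0.000308). In CD26- NFs the 2 genes changed by 0.28 ± 0.12 (FDR = 0.126) and 0.76 ± 0.30 (FDR = 0.0906). Adam8 (chr7:139978932-139992562, minus strand), best known from leukocytes, had 8.58, 6.37 and 7.87 CPM in CD26+ control and 7.95 to 18.5 CPM (median 12.1) in CM, with overlap. Its log2 rise of 0.71 ± 0.25 (FDR = 0.0388) was lost without any one of replicates 1 to 3, 10 to 13, 16 or 17, up to 0.173 without 11, and its log2 change in CD26- NFs was 0.15 ± 0.21 (FDR = 0.668). Adam9, Adam12 and Adam15 did not pass in either cell type. Adam12 had log2 changes of -0.44 ± 0.16 (FDR = 0.0824) and -0.39 ± 0.16 (FDR = 0.0849), and these passed when line 13-MCB-138 was left out (FDR = 0.0166 in CD26- and 0.0314 in CD26+ NFs).

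The 3 ADAMs without a catalytic motif bind LGI proteins in the nervous system. Adam23 (chr1:63445891-63596276, plus strand) had 203, 196 and 198 CPM in CD26+ control and 254 to 299 CPM (median 270) in CM, a log2 rise of 0.46 ± 0.12 (FDR = 0.0107; 0.0522 without replicate 11). Adam22, at 2.15 to 2.67 CPM in CD26+ control and 0.634 to 2.06 CPM (median 1.17) in CM, fell by 0.87 ± 0.27 (FDR = 0.0236; 0.099 without replicate 11) on the log2 scale. Neither passed in CD26- NFs, where the values were 0.18 ± 0.12 (FDR = 0.352) and 0.30 ± 0.31 (FDR = 0.555), and Adam11 passed in neither.

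Of the 6 tested proteoglycanases, CM raised 1 and lowered 2 in CD26- NFs, where 7.88% of all genes rose and 7.28% fell. In CD26+ NFs it raised 3 and lowered 1, where 15.2% of all genes rose and 13.4% fell. Adamts15 had 1.74, 1.37 and 1.49 CPM in CD26- control and 0.707 to 5.52 CPM (median 1.04) in CM, but 1.78, 2.89 and 2.60 CPM in CD26+ control and 3.57 to 23.3 CPM (median 14.5) in CM. Every CD26+ CM library was above the CD26+ controls, and the log2 rise was 2.53 ± 0.60 (FDR = 0.00461), while the change in CD26- NFs was 0.24 ± 0.75 (FDR = 0.865). Adamts1 (chr16:85793827-85803113, minus strand), which cuts versican and aggrecan, had 74.1, 75.7 and 74.4 CPM in CD26+ control and 77.4 to 110 CPM (median 87.1) in CM, and 59.1, 69.2 and 64.6 CPM in CD26- control and 62.1 to 76.1 CPM (median 72.6) in CM. Its log2 change in CD26- NFs was 0.15 ± 0.10 (FDR = 0.331). In CD26+ NFs its log2 rise of 0.31 ± 0.10 (FDR = 0.0266) was lost without any one of CD26+ replicates 10 to 14, up to 0.0836 without 12. Adamts8 (chr9:30942562-30963838, plus strand) fell with CM in CD26- NFs, from 1.55, 1.37 and 1.69 CPM to 0.375 to 0.796 CPM (median 0.700), a log2 change of -1.31 ± 0.30 (FDR = 0.00796; 0.0599 without CD26- control replicate 3). These are 16 to 25 counts in the controls and 5 to 10 in CM. Adamts5 (chr16:85856173-85901828, minus strand), the other main aggrecanase, passed in neither cell type, with log2 changes of -0.04 ± 0.16 (FDR = 0.908) and -0.07 ± 0.15 (FDR = 0.763).

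The 3 procollagen N-proteinases, which trim newly made fibrillar collagens, moved unalike with CM. Adamts14 rose in both cell types as given above. Adamts2 (chr11:50602084-50807573, plus strand), the member with the most counts, passed in neither, with 226, 240 and 203 CPM in CD26- control and 203 to 393 CPM (median 252) in CM, and 779, 883 and 816 CPM in CD26+ control and 793 to 935 CPM (median 837) in CM. Its log2 changes were 0.32 ± 0.15 (FDR = 0.159) and 0.04 ± 0.15 (FDR = 0.863). Adamts3, a protease that also activates VEGF-C, fell in CD26+ NFs from 9.07 to 14.1 CPM in control to 2.75 to 9.29 CPM (median 4.12) in CM, a log2 change of -1.25 ± 0.35 (FDR = 0.0135), lost without replicate 11 (0.064) or 12.

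Among the remaining ADAMTS and ADAMTS-like genes, Adamts10 (chr17:33524204-33553782, plus strand), a protein of fibrillin microfibrils, had 45.7, 45.4 and 41.2 CPM in CD26+ control and 28.0 to 45.1 CPM (median 31.8) in CM. The highest CM library lay within the control range, and the log2 change was -0.39 ± 0.11 (FDR = 0.0138; 0.0519 without replicate 10). Adamtsl1 (chr4:85514172-86428385, plus strand) had 41.2, 50.1 and 46.7 CPM in CD26+ control and 9.90 to 26.1 CPM (median 17.4) in CM, with no overlap and a log2 change of -1.36 ± 0.33 (FDR = 0.00485). In CD26- NFs it had 33.6, 35.1 and 31.9 CPM in control and 7.29 to 30.9 CPM (median 15.8) in CM, and its log2 change of -0.99 ± 0.33 (FDR = 0.0529) lay just outside the limit. Adamts12 (chr15:11064790-11349231, plus strand), the other COMP-cleaving protease, passed in neither cell type, with log2 changes of -0.41 ± 0.24 (FDR = 0.267) and -0.51 ± 0.24 (FDR = 0.117). When line 13-MCB-138 was left out these were -0.61 (FDR = 0.0302) and -0.62 (FDR = 0.0136). Adamts6 (chr13:104287835-104496695, plus strand), the nearest relative of Adamts10, had log2 changes of -0.27 ± 0.09 (FDR = 0.0622) in CD26- and 0.10 ± 0.10 (FDR = 0.459) in CD26+ NFs.

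The second question was how CD26+ NFs differed from CD26- NFs in the same medium. In control medium 20 of 31 members passed (64.5%), of which CD26+ NFs had 16 at a higher and 4 at a lower level. Over all genes 50.3% passed, 25% higher and 25.4% lower. In tumour CM 23 of 31 passed (74.2%), 22 higher (71.0%) and 1 lower, where 58.6% of all genes passed, 29.3% in each direction. The median log2 difference of the members was 0.46 in control medium and 0.50 in CM, next to 0.01 and -0.00 over all tested genes. Without replicate 18 the count in CM was 25, with 59.3% of all genes. Beyond a log2 difference of 2 lay Adam8 and Adamts8 in control medium (5.97% of all genes) and Adamts15 in CM (4.16%). Summed fibroblast markers were higher and summed epithelial markers lower in every CD26+ than in every CD26- library of the same medium, by the values given above. Summed adipocyte markers were higher in CD26+ NFs, with 22.3 to 37.8 against 14.3 to 16.0 CPM in control medium and 32.7 to 89.1 against 16.9 to 27.9 CPM in CM. Pericyte and smooth muscle markers were lower in control medium, with 2512 to 2669 against 3038 to 3102 CPM, and overlapped in CM. Endothelial markers were lower in control medium too, with 2.19 to 2.74 against 4.36 to 5.28 CPM, and skeletal muscle markers were lower in both media. The part of these markers in the differences was not tested. In bulk RNA, fewer cells of a type and less RNA per cell cannot be told apart.

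**Figure D4:**
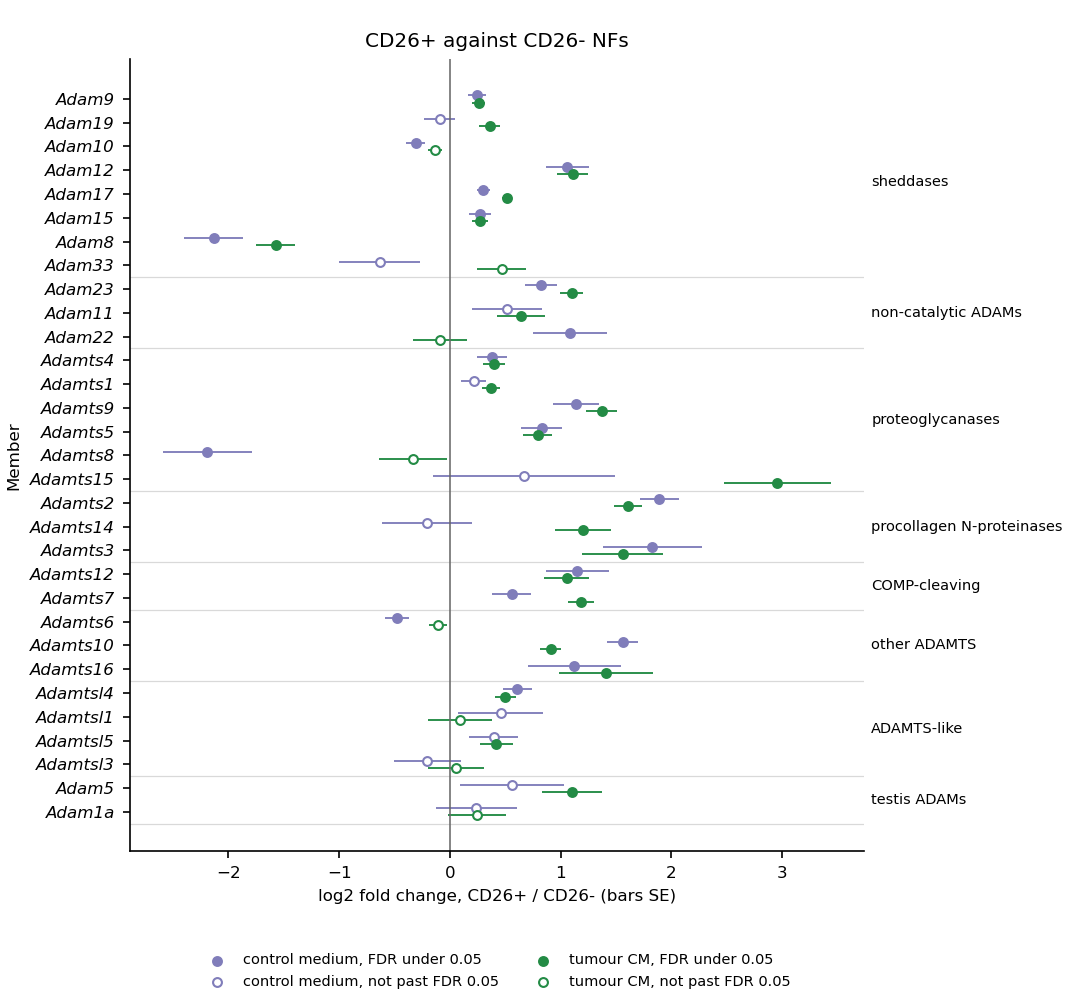
Log2 difference of CD26+ against CD26- NFs for the 31 tested members in control medium and in tumour CM; bars are the SE of the edgeR fit, filled points have an FDR under 0.05 and open points do not. Most filled points lie above 0, 16 of 20 in control medium and 22 of 23 in CM, and Adam8 is filled below 0 in both media.

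In both media 15 members were higher in CD26+ NFs (18.9% of all tested genes) and 1 was lower (19.2%). The tests share no library but come from 1 model with a shared estimate of the spread. Adamts2 had a log2 difference of 1.89 ± 0.18 (FDR = 2.3e-07) and 1.61 ± 0.12 (FDR = 1.16e-08) in CM, where its lowest CD26+ library stood at 793 CPM and its highest CD26- library at 393 CPM. For Adamts3 the differences were 1.83 ± 0.45 (FDR = 0.0024) and 1.56 ± 0.37 (FDR = 0.00134). All 3 procollagen N-proteinases were higher in CD26+ NFs in CM, as were 29.3% of all genes. Adamts14 differed by 1.20 ± 0.25 (FDR = 0.000563) in CM, while in control medium its value was -0.21 ± 0.41 (FDR = 0.7). Adamts10 had 16.7, 14.9 and 13.5 CPM in CD26- control, and its log2 difference was 1.56 ± 0.14 (FDR = 1.32e-07) in control medium and 0.91 ± 0.10 (FDR = 3.94e-07) in CM.

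Both COMP-cleaving proteases were higher in CD26+ NFs in both media, as were 18.9% of all tested genes. Adamts12 had 99.8, 106 and 112 CPM in CD26- control and 217, 256 and 234 CPM in CD26+ control, a log2 difference of 1.15 ± 0.28 (FDR = 0.00256), and 1.05 ± 0.20 (FDR = 0.000235) in CM. For Adamts7 the differences were 0.56 ± 0.18 (FDR = 0.0146) and 1.18 ± 0.12 (FDR = 1.99e-07). Of the 6 proteoglycanases, 3 were higher in control medium (Adamts4, Adamts5 and Adamts9) and 5 in CM (those and Adamts1 and Adamts15), next to 25% and 29.3% of all genes. Adamts5 had 26.1, 26.5 and 23.0 CPM in CD26- control, 45.5, 48.6 and 40.0 CPM in CD26+ control, 17.1 to 27.9 CPM (median 25.2) in CD26- CM and 27.0 to 50.0 CPM (median 44.6) in CD26+ CM. Its log2 differences were 0.83 ± 0.18 (FDR = 0.0011) and 0.79 ± 0.13 (FDR = 4.88e-05). Adamts9 differed by 1.14 ± 0.21 (FDR = 0.000215) and 1.37 ± 0.14 (FDR = 3.01e-07). Adamts4 differed by 0.38 ± 0.14 (FDR = 0.0277) in control medium, lost without replicate 2, 3, 11 or 12 (up to 0.0946, without 2), and by 0.40 ± 0.10 (FDR = 0.00215) in CM. For Adamts15 the value was 0.67 ± 0.82 (FDR = 0.524) in control medium and 2.96 ± 0.48 (FDR = 4.54e-05) in CM. Adamts8 was the proteoglycanase lower in CD26+ NFs, with 1.55, 1.37 and 1.69 CPM in CD26- control and 0.243, 0.519 and 0.223 CPM in CD26+ control. These ranges did not overlap, but they rest on 16 to 25 and on 3 to 7 counts per library. Its log2 difference was -2.19 ± 0.40 (FDR = 0.000193) in control medium and -0.33 ± 0.31 (FDR = 0.373) in CM. For Adamts1 it was 0.22 ± 0.11 (FDR = 0.121) and 0.37 ± 0.08 (FDR = 0.000597). Adamts16 differed by 1.12 ± 0.42 (FDR = 0.0338) in control medium, lost with DESeq2 and without replicate 1, 2, 11 or 12 (up to 0.146, without 2), and by 1.41 ± 0.42 (FDR = 0.00832) in CM.

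Among the 8 sheddases, control medium showed 4 higher (50.0%; 25% of all genes) and 2 lower (25.0%; 25.4% of all genes) in CD26+ NFs. In CM it was 5 (62.5%) and 1 (12.5%), next to 29.3% of all genes in each direction. Adam12 (chr7:133883199-134232146, minus strand), a mesenchymal sheddase, had 376, 385 and 395 CPM in CD26- control, 763, 849 and 800 CPM in CD26+ control, 203 to 388 CPM (median 285) in CD26- CM and 509 to 750 CPM (median 597) in CD26+ CM. The cell types did not overlap in either medium, and the log2 difference was 1.06 ± 0.19 (FDR = 0.000201) and 1.11 ± 0.14 (FDR = 2.36e-06). Adam8 had 35.7, 32.5 and 31.9 CPM in CD26- control and 27.1 to 46.0 CPM (median 38.5) in CD26- CM, above all CD26+ libraries, whose highest value was 18.5 CPM. It was the one member lower in CD26+ NFs in both media, with a log2 difference of -2.13 ± 0.27 (FDR = 4.31e-06) in control medium and -1.57 ± 0.18 (FDR = 8.76e-07) in CM. Beside it, the summed level of 8 immune markers was 23.4 to 25.2 CPM in CD26- control and 17.9 to 19.8 CPM in CD26+ control, without overlap, and 13.8 to 26.6 and 19.7 to 27.7 CPM in CM, with overlap. Of these, 6 averaged under 1 CPM in every group, and the part of the immune markers in the difference was not tested. Smaller differences were those of Adam17, at 0.30 ± 0.06 (FDR = 0.000461) and 0.52 ± 0.04 (FDR = 2.37e-08), Adam9, at 0.25 ± 0.08 (FDR = 0.0195; 0.0587 without replicate 11) and 0.26 ± 0.06 (FDR = 0.000915), and Adam15, at 0.27 ± 0.10 (FDR = 0.0321; 0.191 without replicate 3) and 0.27 ± 0.07 (FDR = 0.00355). The Adam15 call in control medium was also lost without replicate 11 and with no filter on low counts. An antisense gene covers 20.6% of its exon bases. In control medium Adam10 was lower in the CD26+ group, with a log2 difference of -0.31 ± 0.09 (FDR = 0.00566), and its value in CM was -0.14 ± 0.06 (FDR = 0.0633). It passed under 6 of 25 alternatives, namely the line as a block (FDR = 0.00259), upper-quartile scaling and the omission of replicate 4, 5, 16 or 18.

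Adam23, at 112, 116 and 109 CPM in CD26- control and 102 to 162 CPM (median 119) in CD26- CM, was higher in CD26+ NFs by 0.82 ± 0.14 (FDR = 0.000124) in control medium and 1.10 ± 0.10 (FDR = 7.69e-08) in CM. Adamtsl4, a protein of fibrillin microfibrils in the eye, was higher by 0.61 ± 0.13 (FDR = 0.00099) and 0.50 ± 0.09 (FDR = 0.000216). Adamts6 had 48.0, 49.5 and 52.4 CPM in CD26- control and 34.7, 35.2 and 37.8 CPM in CD26+ control, a log2 difference of -0.48 ± 0.11 (FDR = 0.00147). In CM it had 34.6 to 47.0 CPM (median 42.0) in CD26- and 35.8 to 45.3 CPM (median 37.6) in CD26+ NFs, and its value in CM was -0.11 ± 0.08 (FDR = 0.248). Adam1a, Adam33, Adamtsl1 and Adamtsl3 passed in neither medium, where Adamtsl1 had 0.46 ± 0.38 (FDR = 0.337) and 0.09 ± 0.29 (FDR = 0.808) and Adamtsl3 -0.20 ± 0.31 (FDR = 0.607) and 0.06 ± 0.25 (FDR = 0.868). For Adamtsl5 the differences were 0.39 ± 0.22 (FDR = 0.15) and 0.42 ± 0.15 (FDR = 0.0206), the latter lost without replicate 13 or 14 (up to 0.0675, without 13).

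The third question was whether CM acted unequally on the 2 cell types. The test of the difference between both CM effects called 2 of 31 members, 1 in each direction, where 7.53% of all genes passed, 4.53% positive and 3.01% negative. Neither reached a log2 difference of 2 together with the FDR, as 0.392% of all genes did. For Adamts10 the difference, CD26+ minus CD26-, was -0.65 ± 0.17 on the log2 scale (FDR = 0.0262), with 0.26 ± 0.13 (FDR = 0.17) in CD26- NFs and -0.39 in CD26+ NFs. The CD26- CM libraries of Adamts10 lay between 16.1 and 19.2 CPM (median 17.9). For Adamts8 it was 1.86 ± 0.52 (FDR = 0.0362), with -1.31 in CD26- and 0.55 ± 0.42 (FDR = 0.358) in CD26+ NFs, where its control libraries held 3, 7 and 3 counts and its CM libraries 2 to 12, or 0.179 to 0.91 CPM (median 0.463). An antisense gene covers 10.6% of its exon bases. Both calls depended on single libraries: Adamts10 was lost without replicate 2, 3, 10 or 11 (up to 0.0839, without 3), and Adamts8 without replicate 1, 2, 3, 6, 10, 12, 13, 14, 15 or 16 (up to 0.106, without 12).

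The same medium was given to 1 culture of each cell type, and libraries of the same line deviated together from their group means. With the line as a block, 10 members passed the test of the difference, 8 positive and 2 negative, where 17.6% of all genes passed against 7.53% without the block. Those added were Adamts14 (log2 difference 1.35, FDR = 0.000903 with the block against 0.0765 without), Adamts15 (2.34, FDR = 0.0106 against 0.155), Adam33 (1.06, FDR = 0.0128 against 0.113), Adam17 (0.21, FDR = 0.0229 against 0.081), Adamts7 (0.61, FDR = 0.0259 against 0.0762), Adamts6 (0.38, FDR = 0.0347 against 0.0939), Adam22 (-1.18, FDR = 0.0382 against 0.0861) and Adam10 (0.17, FDR = 0.0487 against 0.318). Adamts10 and Adamts8 passed in both fits, with FDR = 0.00751 and 0.0259 under the block. Without replicate 18 and with no block, 7 members and 16.4% of all genes passed. In the comparison of cell types in CM the block gave 25 calls, adding Adam10 and Adam33, where 63.0% of all genes passed.

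The fourth question was whether the lines differed, judged in the 12 CM libraries with the 2 cultures of a line as its only replicates. Of 29 members tested, 9 passed (31.0%), where 6.56% of 13344 genes passed. Adamts12 had the smallest FDR, 0.00511, with 132 CPM under 13-MCB-138, 98.4 under 18-MCB-12, 82.2 under 13-MCB-44, 61.8 under 13-MCB-17, 53.0 under 10-SJK-221 and 52.0 under 13-MCB-90 in CD26- NFs. In CD26+ NFs the same lines gave 224, 202, 169, 135, 127 and 136 CPM. The first 4 lines kept their order in both cell types. For Adamtsl1 (FDR = 0.01) the order of the same 6 lines was 30.9, 20.6, 19.7, 7.29, 11.0 and 12.0 CPM in CD26- and 26.1, 22.2, 24.4, 12.7, 9.90 and 12.6 CPM in CD26+ NFs. For Adamts14 (FDR = 0.0169) the high and low lines were the other way round, with 18.0, 31.0, 25.1, 40.5, 36.0 and 31.9 CPM in CD26- and 23.1, 61.1, 59.1, 95.7, 100 and 79.9 CPM in CD26+ NFs.

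The other 6 were Adam12 (FDR = 0.0201), Adam10 (0.0281), Adamtsl3 (0.0324), Adam33 (0.0461), Adamts15 (0.0492) and Adamts3 (0.0492). Line 13-MCB-138 was the highest or lowest of the 6 in 8 of these 9 members in CD26- NFs and in 7 of 9 in CD26+ NFs, where the share over the 876 genes past the line test was 51.6% and 49.2%. It had the highest CD26- values of Adam12 (388 CPM), Adamts12, Adamtsl1, Adamtsl3 (8.22 CPM) and Adamts3 (3.45 CPM), and the lowest of Adam33 (9.90 CPM), Adamts14 and Adamts15 (0.707 CPM). Without both libraries of that line, 8 members passed (and 10.6% of all genes), 5 of them shared with the 9, and Adam33, Adamts15, Adamts3 and Adamtsl3 were lost. Without CD26- CM replicate 7 or 8, or CD26+ CM replicate 16, the count was 3, and these were Adamts12, Adamts14 and Adamtsl1 each time. The same line was highest in both cell types in 12 of 29 members (41.4%; 28.3% of all genes) and lowest in 6 of 29 (20.7%; 26.8% of all genes).

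**Figure D5:**
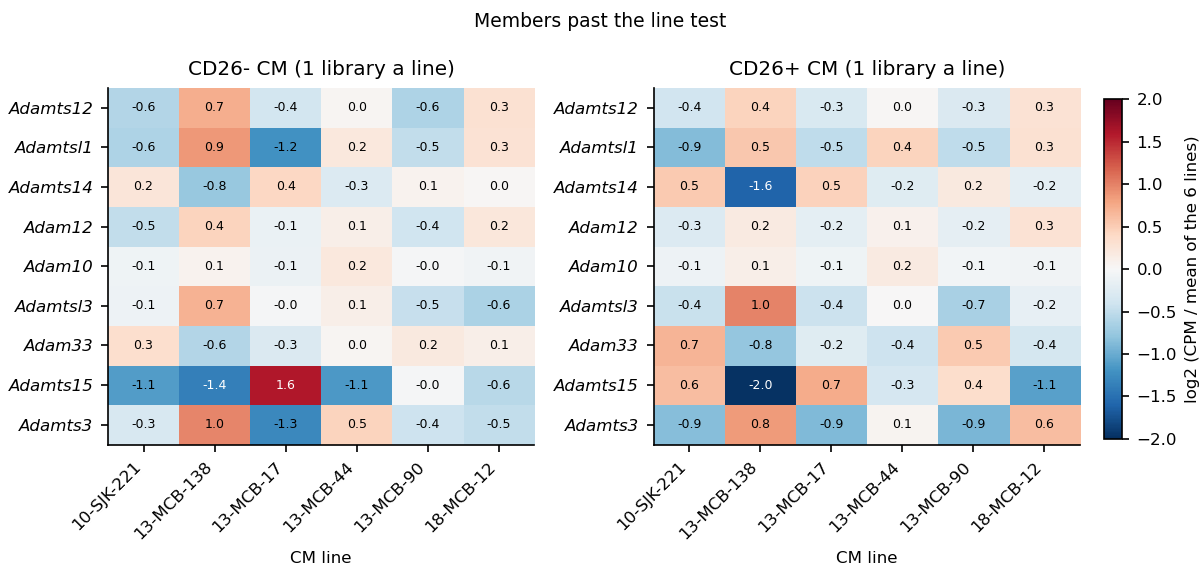
Heat map of the 9 members past the line test in the 6 lines, for CD26- and CD26+ NFs in CM; colour is the log2 of CPM over the mean of the 6 lines. In both cell types line 13-MCB-138 is highest in Adamts12, Adamtsl1, Adamtsl3 and Adamts3 and lowest in Adamts14, Adamts15 and Adam33, though not always by a wide margin.

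Replicate 18, the CD26+ library with CM of 13-MCB-138, lay nearest the CD26+ controls of the 6 CM libraries in 8 of the 12 risen members (66.7%; 67.7% of all risen genes) and in 7 of the 8 fallen members (87.5%; 67.3% of all fallen genes). In CD26- NFs that place was taken by replicate 7, with CM of 13-MCB-44, in 3 of 4 risen and 3 of 5 fallen members, and in 44.9% of all risen and 52.8% of all fallen genes.

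Other genes of the pathway were read from lists of inhibitors and cofactors, matrix substrates and shed proteins. Of the 19 inhibitors, chaperones, receptors and activators 16 were tested; 1 passed with CM in CD26- NFs (Tspan5, up; 6.25%, where 15.2% of all genes passed in either direction). In CD26+ NFs 6 went up (37.5%; 15.2% of all genes) and 2 down (12.5%; 13.4% of all genes). Timp3, the inhibitor that acts on ADAM17 and the aggrecanases, rose by 0.79 ± 0.14 (FDR = 0.000426) on the log2 scale in CD26+ NFs, as did Timp2 by 0.24 ± 0.04 (FDR = 0.00078) and Timp1 by 0.40 ± 0.11 (FDR = 0.0105). Rhbdf2, which carries ADAM17 to the cell surface, rose by 1.45 ± 0.16 (FDR = 7.58e-06) in CD26+ NFs next to 0.37 ± 0.14 (FDR = 0.089) in CD26- NFs, and the difference of 1.08 ± 0.21 passed (FDR = 0.00691). Rhbdf2 was lower in CD26+ NFs, with a log2 difference of -2.11 ± 0.18 (FDR = 8.24e-08) in control medium and of -1.03 ± 0.12 (FDR = 7.63e-07) in CM. Of the 16 tested, 4 were higher and 4 lower in control medium (25.0% each; 25% and 25.4% of all genes). In CM 7 were higher (43.8%) and 4 lower (25.0%), next to 29.3% of all genes in each direction. The difference in CM effect passed for 3 (18.8%; 7.53% of all genes), namely Rhbdf2, Timp1 and Timp2, all positive. Tspan5, a tetraspanin that guides ADAM10, rose in both, by 0.63 ± 0.18 (FDR = 0.0281) and 0.58 ± 0.18 (FDR = 0.024). Pcsk5 and Pcsk6, convertases of the family that removes prodomains, fell in CD26+ NFs by 1.51 ± 0.40 (FDR = 0.00972) and 0.76 ± 0.27 (FDR = 0.0443).

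Of 13 matrix substrates 11 were tested. In CD26- NFs, where 7.88% of all genes rose and 7.28% fell, 1 rose with CM (Dcn, by 2.64 ± 0.30, FDR = 8.75e-05) and 1 fell (Col3a1, -1.20 ± 0.39, FDR = 0.0447). In CD26+ NFs 1 rose (Dcn, 3.19 ± 0.31, FDR = 1.48e-06) and 8 fell (72.7%; 13.4% of all genes), among them Comp by 3.02 ± 0.49 (FDR = 0.000243), Vcan by 0.97 ± 0.14 (FDR = 5.78e-05) and Col1a1 by 0.86 ± 0.31 (FDR = 0.0415). Vcan encodes versican, the substrate of Adamts1, Adamts4 and Adamts9. It passed the test of the difference in CM effect at -0.82 ± 0.20 (FDR = 0.0204). In each medium 10 of the 11 were higher in CD26+ NFs (90.9%; 25% of all genes in control medium and 29.3% in CM), for example Vcan by 1.65 ± 0.17 (FDR = 4.45e-07) in control medium and Col1a1 by 1.93 ± 0.37 (FDR = 0.00034), and several of these are fibroblast markers too.

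All 18 shed membrane proteins were tested, and CM raised 3 (16.7%; 7.88% of all genes) and lowered 2 (11.1%; 7.28%) in CD26- NFs. In CD26+ NFs it raised 7 (38.9%; 15.2% of all genes) and lowered 2 (11.1%; 13.4%). Ereg, a ligand of the EGF receptor released by ADAM17, rose by 0.75 ± 0.20 (FDR = 0.0197) in CD26- and by 2.07 ± 0.22 (FDR = 4.74e-06) in CD26+ NFs. Cxcl16, a chemokine cut by ADAM10, had log2 changes of 0.02 ± 0.14 (FDR = 0.956) and 1.26 ± 0.16 (FDR = 2.5e-05), and the difference of 1.25 ± 0.21 passed (FDR = 0.00402). Vcam1 rose in both, by 1.58 ± 0.18 (FDR = 8.75e-05) and 0.74 ± 0.16 (FDR = 0.00282), and Cx3cl1 fell in both, by 1.45 ± 0.28 (FDR = 0.00285) and 1.68 ± 0.27 (FDR = 0.000197). The test of the difference in CM effect called 5 of the 18 (27.8%; 7.53% of all genes). Cxcl16, Ereg and Il6ra were positive, Tnfrsf1a and Vcam1 negative. Between cell types, control medium showed 9 lower (50.0%; 25.4% of all genes) and 5 higher (27.8%; 25%) in CD26+ NFs. In CM 8 were lower (44.4%) and 6 higher (33.3%), next to 29.3% of all genes in each direction, so the shares of higher genes were near those of all genes. Tgfa, Areg and Tnf were lower, with log2 differences of -2.52 ± 0.27 (FDR = 7.34e-07), -2.26 ± 0.32 (FDR = 1.68e-05) and -2.53 ± 0.68 (FDR = 0.00496) in control medium, and Tnfrsf1a, the TNF receptor that ADAM17 sheds, was higher by 1.05 ± 0.07 (FDR = 6.42e-09).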

How the data were processed

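Gene counts of 18 libraries were analysed. Per the labels, polyadenylated RNA went into stranded TruSeq libraries, and the submitters' processing notes name HISAT2 2.1.0, HTSeq and GRCm38. The strand setting of the counting and the annotation release are not given in the sources used here, but coordinates of 57 of 57 members equal those of GENCODE M21, whose exon lengths were used. The authors deposited raw counts per gene, 1 column per library, without normalization. One row without a gene held 0 counts and was left out. The labels name no sequencing or library batch.

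Genes were kept with filterByExpr (14273 genes, at least 99.85% of each library's counts), scaled with TMM and tested with glmQLFit and glmQLFTest of edgeR 4.0.16 in R 4.3.3, in 1 model with a term per group. The common biological coefficient of variation was 0.117. Tests are two-sided, FDR is the Benjamini-Hochberg adjusted p over all tested genes, and a member passed under 0.05. The study's further limit of 2 on the log2 scale is given beside it. CPM values divide each count by the library size after TMM scaling. The line test (13344 genes) used the 12 CM libraries with cell type and line as terms. Library pairs within groups differed by at least 3.03 times the chi-square per degree of freedom that counting error gives, so none was a copy.

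Libraries of the same line correlated in their deviations from the group means with r from 0.247 to 0.406 in all 6 pairs, where libraries of different lines reached at most 0.242, and the fit with the line as replicate block was an alternative. Others were DESeq2 1.42.0 (the study's test), RLE and upper-quartile scaling, no filter, the 2 groups alone and each library left out. Scripts were tested on simulated data. RefSeq promoters were at hand for 31 of the 57 members.

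The members and lists were chosen with earlier results of these data known. Levels in every group, by library or by range, are given for the 3 members up and the 3 down with the smallest p in each group contrast, and up to 4 in the difference and the line test, among those past the FDR with at least 1 CPM in a group, plus Adam8, Adam10, Adam12, Adam17, Adamts1, Adamts2, Adamts4, Adamts5 and Adamts12 for their role. This makes 20 members; others named were chosen after their values were seen.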

Additional observations from a re-analysis of the deposited data

Results flagged for a closer look

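Among 40 tests for a library far from the rest of its CM group, 3 flagged one, where chance flags about 1 group in 20. Adamts5 was lowest in CD26- CM replicate 4, with 17.1 CPM next to 24.0 CPM in the nearest library. Adamts6 was highest in CD26+ CM replicate 15, with 45.3 CPM next to 39.1 CPM. Adamtsl3 was highest in CD26+ CM replicate 18, with 10.5 CPM next to 5.31 CPM, and this library also fell with the CD26+ controls in the clustering. The CM effect differed between the cell types, CD26+ minus CD26-, by -0.65 on the log2 scale in Adamts10 (edgeR FDR = 0.0262) and by 1.86 in Adamts8 (FDR = 0.0362).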

How the results depend on the processing

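With each library left out in turn, the number of members past the edgeR FDR changed. The CM effect in CD26- NFs gave 4 to 12 calls against 9, the CM effect in CD26+ NFs 14 to 21 against 20, the cell type difference 16 to 20 against 20 in control medium and 22 to 25 against 23 in CM, the difference in CM effect 0 to 7 against 2, and the line test 3 to 12 against 9. The difference in CM effect had 0 calls without the control replicates 2, 3 or 10, where 8, 9 and 8 members had an unadjusted p under 0.05, and 7 without replicate 18. DESeq2 gave 5 calls there (10.8% of all genes), no filter on low counts 1 (2.40%) and the line as replicate block 10 (17.6%), against 7.53% in the main fit. No filter also raised the line test to 14 of 43 members, where 8.33% of all genes passed. The block changed no other call than those named in the report. Leaving out both libraries of line 13-MCB-138, an alternative chosen after seeing the data, gave 16 calls for CM in CD26- NFs and 7 for the difference in CM effect, with 20.3% and 16.9% of all genes. A log2 limit of 2 left 1, 2, 2, 1 and 0 calls in the 5 group comparisons, in the order of the report, since it asks for more than the FDR; for the last, 10 members had an unadjusted p under 0.05 in edgeR and 10 in DESeq2. For the fewer or more calls under the other settings the cause was not tested. Of 2418 values of the named members under single alternatives, 2304 stayed on the same side of the limit, 69 no longer passed and 45 came to pass, and none that passed in either fit changed direction. Adamts8, with 2 to 25 counts per library, and Adam5, with 4 to 28, are limited by depth.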
